A study of Homo sapiens with 2 samples.

Results

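The genes followed here were 10 genes of antioxidant and glutathione defence, namely the NRF2 targets NQO1, HMOX1, GCLC, GCLM, SLC7A11, TXNRD1, SRXN1, AKR1C1 and AKR1C2, together with GSTP1. They were taken by gene symbol from the deposited expression table, where all 10 were found among 21382 genes. Untreated cells of 2 human lines labelled as prostate cancer, MDA PCa 2b and RC77 T/E, had been profiled by RNA-Seq, with 1 library of total RNA for each. MDA PCa 2b cells grew in Ham's F-12 medium (Kaighn's modification) with cholera toxin (25 ng/ml), EGF (10 ng/ml), insulin (5 ug/ml), hydrocortisone (100 pg/ml), phosphoethanolamine (5 mM), sodium selenite (45 nM) and 20% serum. RC77 T/E cells grew in Keratinocyte-SFM supplemented with EGF and bovine pituitary extract. Each group is 1 established line, and cell line, medium and library cannot be told apart in this design. No value has a replicate error, no test was made, and a difference describes these 2 libraries only.

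NRF2, encoded by NFE2L2, is a transcription factor that the adaptor KEAP1 normally hands to a ubiquitin ligase for degradation. Electrophiles and oxidants modify KEAP1, whereupon NRF2 accumulates, pairs with a small MAF protein and binds the antioxidant response element in front of its target genes. The targets import cystine, build the tripeptide glutathione, reduce thioredoxin and peroxiredoxins, and reduce quinones, carbonyls and heme breakdown products. GSTP1 conjugates glutathione to electrophiles, and loss of its expression through methylation of its promoter is a well known feature of prostate cancer.

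GSTP1, AKR1C1 and AKR1C2 were higher in RC77 T/E cells, while NQO1, HMOX1 and TXNRD1 were higher in MDA PCa 2b cells. The genes of glutathione building, GCLC, GCLM and SLC7A11, and the sulfiredoxin gene SRXN1 differed by less than 2-fold. Expression was given in TPM, which relates reads to gene length and library total, so levels can be set side by side between genes. A fold was taken after setting values under 1 TPM to 1 TPM, and a gene was called higher in a line at 2-fold or more. By this rule 3 of the 10 genes were higher in RC77 T/E, beside 21.5% of the 11624 genes averaging 1 TPM or more. Another 3 of the 10 were higher in MDA PCa 2b, beside 23.5% of those genes. Both counts lie near the background, so the number of genes apart does not set the group off, and what follows concerns which genes they were and by how much. The median log2 fold of RC77 T/E over MDA PCa 2b was −0.44 for the 10 genes and −0.17 for all genes tested. Relative to that shift of all genes, the median of the 10 was −0.27 and the same 6 genes stayed past 2-fold. The shares of all genes tested were then 24.2% toward RC77 T/E and 19.7% toward MDA PCa 2b.

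At 1 TPM or more, 7 of the 10 genes were found in MDA PCa 2b, beside 49.6% of all genes in the table, and 9 of the 10 in RC77 T/E, beside 52.8%. In MDA PCa 2b the genes below this level were GSTP1, AKR1C1 and AKR1C2, and in RC77 T/E it was HMOX1. The other 6 genes passed it in both lines. None of the 10 was listed at 0.

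**Figure D1:**
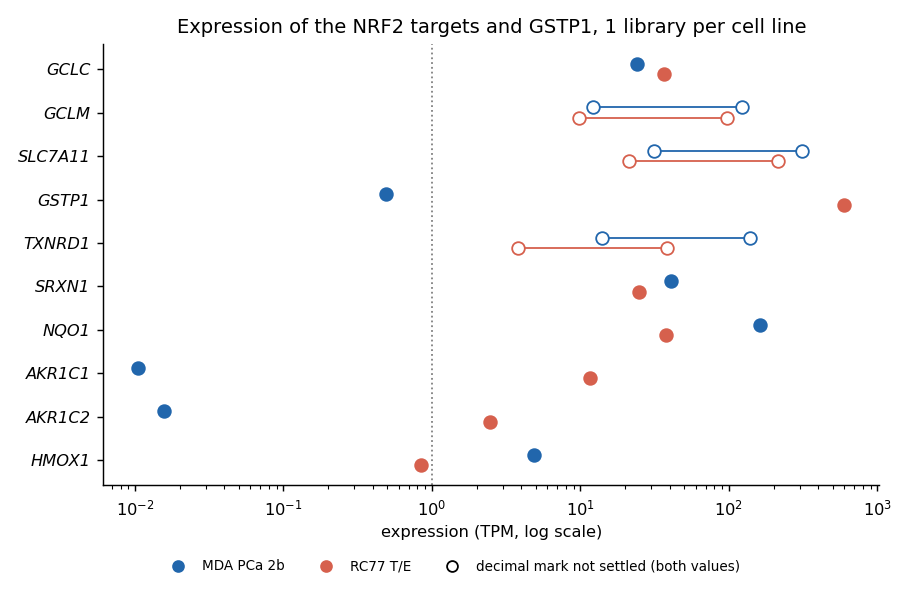
Expression in TPM on a log scale of each of the 10 genes in MDA PCa 2b (blue) and RC77 T/E (red), with 1 library per point and the 1 TPM level dotted. Open circles joined by a line mark GCLM, SLC7A11 and TXNRD1, for which either end is possible and both lines move together. GSTP1 spans 0.494 to 597 TPM, whereas GCLC, GCLM, SLC7A11 and SRXN1 sit close together in both lines.

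Deposited values from 1 TPM upward had lost their decimal mark, which was put back from the mean and standard error in the same row. This settled the values of 7 of the 10 genes, while GCLM, SLC7A11 and TXNRD1 keep 2 possible values that differ 10-fold and are written as "12.2 or 122 TPM". The choice applies to both lines at once, so the fold of these 3 genes does not depend on it. The positions of the 10 genes are those of the deposited table on GRCh38, and all 10 overlap the gene of that name in GENCODE release 29, from which strands were taken.

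The lines were checked against markers of prostate epithelium. The luminal gene KLK3 stood at 5323 TPM in MDA PCa 2b and was listed at 0 in RC77 T/E. RC77 T/E had the basal keratins KRT5 (4027 TPM) and KRT14 (3255 TPM), which MDA PCa 2b had at 0.00435 and 37.4 TPM. The luminal keratin KRT18 had 320 TPM in MDA PCa 2b against 325 TPM in RC77 T/E. Leukocyte, endothelial, platelet and red cell markers (PTPRC, PECAM1, PF4, HBB) reached at most 0.216 TPM, and the fibroblast gene COL1A1 had 0.554 TPM in MDA PCa 2b against 8.24 TPM in RC77 T/E. In bulk RNA, fewer cells of a type and less RNA per cell cannot be told apart. A listed 0 can be a failed estimate, since EEF1A1, which every cell uses, was listed at 0 in MDA PCa 2b and at 2393 TPM in RC77 T/E. Of 10 genes that every cell uses, 7 were within the 2-fold limit. EEF1A1 and ACTB (2.40-fold) were higher in RC77 T/E and RPLP0 (2.51-fold) in MDA PCa 2b. These are 20% and 10%, beside 21.5% and 23.5% of all genes tested. Folds of about 2.5 thus occurred among such genes too.

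The core letters of the antioxidant response element, TGACNNNGC, were searched on both strands of RefSeq promoter windows on GRCh38.p14. A window runs from 250 bases before to 50 bases after a RefSeq start site, which need not be the start of the deposited interval. Windows were found for 8 of the 10 genes (all but HMOX1 and SLC7A11), and TXNRD1 had 2 windows. The windows of GCLC and AKR1C2 and window 2 of TXNRD1 lie wholly inside the deposited interval of the gene. A match stood in 4 of these 9 windows, belonging to GCLM, GSTP1 and TXNRD1, beside 13.3% of all 35116 windows. Each match outside GSTP1 is printed with the 9 bases of the core in capitals and 25 bases on either side, written in the direction of the core. They describe letters in a window and not binding. A window without a match does not show that a gene lacks the element, since sequence outside the window was not searched.
GCLM, chr1:93909431-93909489, + strand: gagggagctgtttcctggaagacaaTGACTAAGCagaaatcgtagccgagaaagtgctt
TXNRD1 window 1, chr12:104215655-104215713, + strand: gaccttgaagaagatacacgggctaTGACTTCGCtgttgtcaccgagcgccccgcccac
TXNRD1 window 1, chr12:104215746-104215804, − strand: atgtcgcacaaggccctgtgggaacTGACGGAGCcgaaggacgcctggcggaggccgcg
TXNRD1 window 2, chr12:104286905-104286963, − strand: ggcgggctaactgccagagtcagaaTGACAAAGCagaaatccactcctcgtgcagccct
In GCLM the core lies on the strand opposite to the gene, and TXNRD1 has it on either strand. Genes with a match were higher in RC77 T/E (GSTP1), higher in MDA PCa 2b (TXNRD1) and within 2-fold (GCLM).

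**Figure D2:**
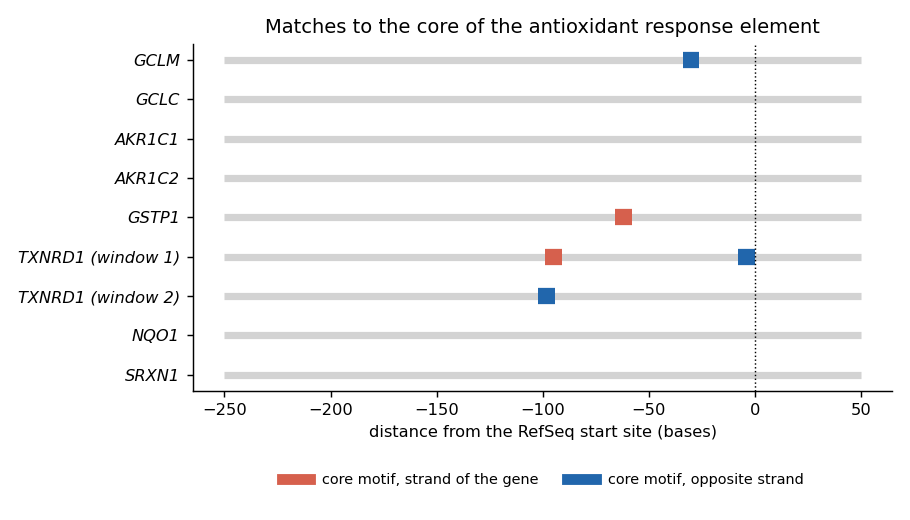
Matches to TGACNNNGC in the 9 promoter windows of 8 genes, by distance from the RefSeq start site in bases, on the strand of the gene (red) or the opposite strand (blue). Matches stand 34 bases upstream in GCLM, 66 in GSTP1, 99 and 8 in the first window of TXNRD1 and 102 in its second window.

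Glutathione building starts with cystine, which SLC7A11, the light chain of the cystine and glutamate exchanger, brings into the cell. SLC7A11 (chr4:138164097-138242349, − strand) had 31.3 or 313 TPM in MDA PCa 2b against 21.3 or 213 TPM in RC77 T/E. MDA PCa 2b was thus 1.47-fold higher, under the 2-fold limit. The antisense gene SLC7A11-AS1, which overlaps it by 14081 bases, had 1.89 TPM in MDA PCa 2b against 0.217 TPM in RC77 T/E, below SLC7A11 in both lines. Glutamate cysteine ligase, the rate-limiting enzyme of glutathione synthesis, has a catalytic subunit (GCLC) and a modifier subunit (GCLM). GCLC (chr6:53497341-53616970, − strand) had 24.0 TPM in MDA PCa 2b against 36.8 TPM in RC77 T/E, a value 1.53-fold higher in RC77 T/E. The long noncoding RNA gene AL033397.1 overlaps GCLC by 55682 bases on the same strand and was not analysed here. It holds 5.72% of the 31-base words of GCLC transcripts. GCLM (chr1:93885199-93909456, − strand) had 12.2 or 122 TPM in MDA PCa 2b against 9.72 or 97.2 TPM in RC77 T/E, which is 1.26-fold higher in MDA PCa 2b. Both subunits were thus within 2-fold. Their folds pointed in opposite directions, but the log2 fold of GCLM was only −0.16 relative to the shift of all genes, without a replicate error.

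The list of glutathione supply and recycling held these 3 genes and others, 10 in all, each at 1 TPM or more in both lines. None was higher in RC77 T/E, 3 (30%) were higher in MDA PCa 2b and 7 were within 2-fold, beside 21.5% and 23.5% of all genes tested in the respective directions, with a median log2 fold of −0.38. The share toward MDA PCa 2b lies near that of all genes, so the count does not set the list off. GGT1, which breaks down glutathione outside the cell so that its amino acids can be taken up again, had 113 TPM in MDA PCa 2b against 8.58 TPM in RC77 T/E, or 13.2-fold higher in MDA PCa 2b. GSR, which reduces oxidised glutathione, was 5.50-fold higher in MDA PCa 2b and CHAC1, which degrades glutathione inside the cell, also passed 2-fold there. GSR and CHAC1 have open marks. At the lowest position, a pseudocount of 1 TPM in place of the floor gave log2 folds of −1.77 and −1.35. Glutathione synthetase (GSS), the second enzyme of synthesis, had 100.4 TPM in MDA PCa 2b against 117 TPM in RC77 T/E. The enzymes of synthesis were thus within 2-fold.

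GSTP1 (chr11:67583742-67586656, + strand) showed the widest gap of the 10 genes. It had 0.494 TPM in MDA PCa 2b against 597 TPM in RC77 T/E. With the 1 TPM floor RC77 T/E was 597-fold higher, and on the listed values 1209-fold. In RC77 T/E between 159 and 755 of the 21382 genes were listed higher than GSTP1, depending on where the open decimal marks stand, whereas in MDA PCa 2b 11291 genes were. No other annotated gene overlaps it, and only 0.0474% of the 31-base words of its transcripts occur in another gene, GSTP1P1. The promoter window of GSTP1 is printed whole because methylation here is the usual way in which prostate tumours lose the gene, with the core of the antioxidant response element in capitals.
GSTP1, chr11:67583562-67583861, GRCh38.p14, + strand: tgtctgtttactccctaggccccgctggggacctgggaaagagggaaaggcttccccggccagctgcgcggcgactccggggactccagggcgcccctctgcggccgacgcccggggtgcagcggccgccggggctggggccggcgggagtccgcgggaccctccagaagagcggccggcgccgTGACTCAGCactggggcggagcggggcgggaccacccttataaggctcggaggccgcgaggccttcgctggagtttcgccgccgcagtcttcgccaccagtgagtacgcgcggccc
It holds 36 CG steps, more than 87.3% of all promoter windows, whose median is 14. Of the other genes with a window, SRXN1 (46) and GCLM (41) hold more and the rest fewer. The core lies 66 bases upstream of the RefSeq start site of the window and reads TGACTCAGC, which also contains TGACTCA, the AP-1 motif. That site and the core both lie inside the deposited interval of the gene, which begins further upstream. Methylation was not measured in these libraries.

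The remaining glutathione S-transferases lay on both sides. With GSTP1, 13 of the 16 transferase genes in the table averaged 1 TPM or more, of which 3 (23.1%) were higher in RC77 T/E, 6 (46.2%) higher in MDA PCa 2b and 4 within 2-fold, with a median log2 fold of −0.92. Of all genes tested 21.5% and 23.5% were, so the share toward RC77 T/E is that of the background. The microsomal genes MGST1 and MGST3 were 3.54-fold and 2.43-fold higher in RC77 T/E. GSTZ1, which acts in tyrosine breakdown, was 5.89-fold and the mu-class gene GSTM3 5.53-fold higher in MDA PCa 2b. GSTA1, of the alpha class, was at 11.0 or 110 TPM in MDA PCa 2b and listed at 0 in RC77 T/E, so no fold is given. Through the floor it still counts among the 6 and enters the median, although a listed 0 can be a failed estimate. GSTP1 was hence the transferase with the largest fold toward RC77 T/E. GSTT1 was not analysed here.

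**Figure D3:**
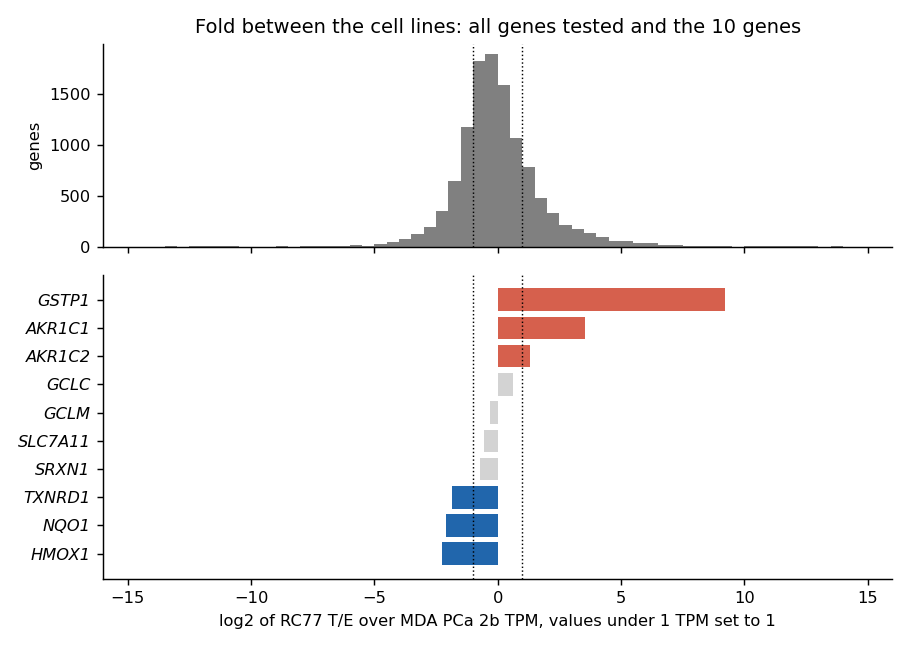
Log2 fold of RC77 T/E over MDA PCa 2b with values under 1 TPM set to 1 TPM, for all 11624 genes tested (upper, genes per bin) and the 10 genes (lower, bars from 0). Dotted lines mark 2-fold. GSTP1 stands at 9.22, AKR1C1 at 3.53 and AKR1C2 at 1.30, while HMOX1, NQO1 and TXNRD1 stand at −2.28, −2.10 and −1.87.

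Thioredoxin reductase 1, encoded by TXNRD1, is a selenoprotein that keeps thioredoxin reduced with NADPH. TXNRD1 (chr12:104215779-104350307, + strand) had 14.0 or 140 TPM in MDA PCa 2b against 3.81 or 38.1 TPM in RC77 T/E. MDA PCa 2b was 3.67-fold higher. The gene EID3 lies inside it on the same strand and had 0.158 TPM in MDA PCa 2b against 0.825 TPM in RC77 T/E. Sodium selenite is named for the MDA PCa 2b medium alone, and its part in the result was not tested. SRXN1 encodes sulfiredoxin, which restores overoxidised peroxiredoxins. SRXN1 (chr20:646615-653200, − strand) had 40.7 TPM in MDA PCa 2b against 24.8 TPM in RC77 T/E, 1.64-fold higher in MDA PCa 2b. Its transcripts share 84.9% of their 31-base words with AL121758.1, a protein-coding gene that overlaps it on the same strand and was not analysed here, so its level is uncertain.

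Of the 13 genes of the thioredoxin and peroxiredoxin list, which holds TXNRD1 and SRXN1, none was higher in RC77 T/E, 6 (46.2%) were higher in MDA PCa 2b and 7 were within 2-fold, with a median log2 fold of −0.89. The background shares were 21.5% toward RC77 T/E and 23.5% toward MDA PCa 2b. TXNRD2, the mitochondrial thioredoxin reductase, was 5.95-fold higher in MDA PCa 2b. PRDX2 was 2.97-fold, PRDX6 2.69-fold and PRDX3 2.50-fold higher there, so 3 of the 6 peroxiredoxins passed 2-fold. With a pseudocount of 1 TPM the call of PRDX6 was lost, at a log2 fold of −0.95. Thioredoxin itself (TXN) had 253 TPM in MDA PCa 2b against 359 TPM in RC77 T/E, and PRDX5 was at 333 and 332 TPM. The substrate of TXNRD1 was thus within 2-fold where TXNRD1 was not. Among the 6 glutathione peroxidases, 3 (50%) were higher in RC77 T/E and 1 (16.7%) was higher in MDA PCa 2b, beside the same background. GPX3, the secreted form, had 0.217 TPM in MDA PCa 2b against 28.8 TPM in RC77 T/E, and GPX8, of the endoplasmic reticulum, was at 0.543 and 15.4 TPM. The third gene counted was GPX7, which was listed at 0 in MDA PCa 2b. GPX2, the gastrointestinal form and an NRF2 target, was 4.24-fold higher in MDA PCa 2b, the direction of TXNRD1 and NQO1.

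NQO1 reduces quinones straight to hydroquinones and so avoids the reactive semiquinone, and it is among the most used readouts of NRF2. NQO1 (chr16:69706996-69726668, − strand) had 163 TPM in MDA PCa 2b against 38.0 TPM in RC77 T/E. MDA PCa 2b was 4.29-fold higher. Between 268 and 3891 of the 21382 genes were listed above it in MDA PCa 2b, and between 1041 and 6612 in RC77 T/E. Its relative NQO2 was 4.82-fold higher in MDA PCa 2b as well, a log2 fold of −2.27. With its open mark at the lowest position, a pseudocount of 1 TPM took this fold to −1.56.

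AKR1C1 and AKR1C2 are aldo-keto reductases that inactivate progesterone and dihydrotestosterone and reduce reactive carbonyls, and both are strong NRF2 targets in human cells. AKR1C1 (chr10:4963253-4983283, + strand) had 0.0106 TPM in MDA PCa 2b against 11.5 TPM in RC77 T/E. AKR1C2 (chr10:4987775-5018031, − strand) had 0.0157 TPM in MDA PCa 2b against 2.47 TPM in RC77 T/E. With the floor, RC77 T/E was 11.5-fold higher for AKR1C1 and 2.47-fold higher for AKR1C2, and the listed MDA PCa 2b values have no known precision. Within RC77 T/E, AKR1C1 was 4.67-fold above AKR1C2. This order is uncertain, because 47.3% of the 31-base words of AKR1C2 transcripts also occur in AKR1C1 and 35.1% of those of AKR1C1 in AKR1C2. The likeness reaches into the promoters, which are printed because they show how nearly the pair is a copy. The differing letters are in capitals.
AKR1C1, chr10:4963165-4963464, + strand, bases 5 to 300 of the window: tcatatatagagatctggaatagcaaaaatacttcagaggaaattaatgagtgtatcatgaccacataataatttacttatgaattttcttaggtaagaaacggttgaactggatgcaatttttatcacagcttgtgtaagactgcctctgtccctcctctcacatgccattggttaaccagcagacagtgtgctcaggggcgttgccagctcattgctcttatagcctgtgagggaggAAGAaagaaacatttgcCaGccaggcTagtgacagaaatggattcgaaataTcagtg
AKR1C2, chr10:5003808-5004107, − strand, bases 1 to 292 of the window: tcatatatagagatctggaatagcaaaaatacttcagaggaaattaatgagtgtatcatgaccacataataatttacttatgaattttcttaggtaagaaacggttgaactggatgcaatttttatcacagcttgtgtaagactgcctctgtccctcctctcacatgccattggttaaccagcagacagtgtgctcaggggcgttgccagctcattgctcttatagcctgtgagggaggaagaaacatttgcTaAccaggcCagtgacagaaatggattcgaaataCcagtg
Of 292 aligned bases 288 were identical (98.6%), 4 differed, and 4 bases stood in AKR1C1 alone. Neither window held the core of the antioxidant response element, and sequence outside the windows was not searched.

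**Figure D4:**
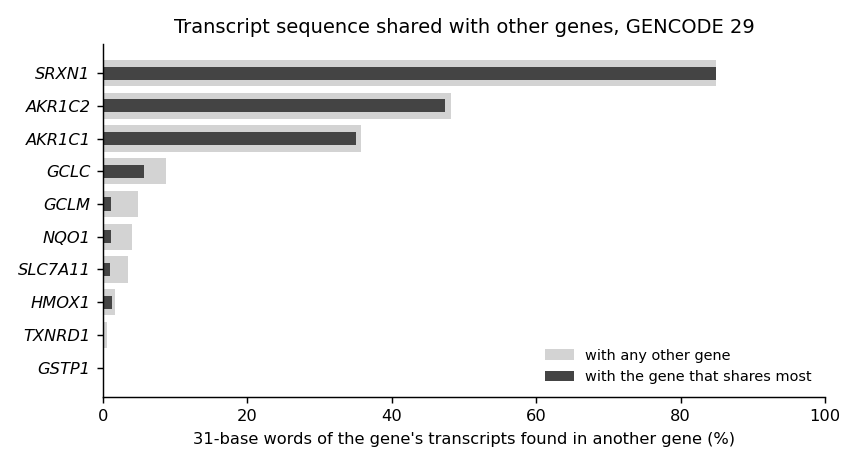
Share of the 31-base words in each gene's GENCODE 29 transcripts that also occur in any other gene (light bars) and in the gene sharing most (dark bars), in percent. SRXN1 (84.9%), AKR1C2 (48.2%) and AKR1C1 (35.7%) share most, and the other 7 genes share at most 8.66%.

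Other aldo-keto reductases lay on the same side. AKR1C3, which makes testosterone from androstenedione and lies in the same cluster, had 0.0486 TPM in MDA PCa 2b against 14.0 TPM in RC77 T/E, and shares 7.17% of its words with other genes. AKR1B1, aldose reductase, had 0.0942 TPM in MDA PCa 2b against 64.7 TPM in RC77 T/E, 5.60-fold above AKR1C1 in that line. AKR1C4, the liver form, was listed at 0 in both lines. Of the 10 quinone and carbonyl reductases averaging 1 TPM or more, 4 (40%) were higher in RC77 T/E, 3 (30%) were higher in MDA PCa 2b and 3 were within 2-fold, beside 21.5% and 23.5% of all genes tested. Those higher in RC77 T/E were AKR1B1, AKR1C1, AKR1C2 and AKR1C3, all aldo-keto reductases. Those higher in MDA PCa 2b were NQO1, NQO2 and AKR1A1 (2.60-fold), so AKR1A1 went against the other aldo-keto reductases.

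HMOX1 encodes heme oxygenase 1, the inducible enzyme that opens heme to biliverdin, carbon monoxide and iron, and BACH1 represses it. HMOX1 (chr22:35380361-35394214, + strand) had 4.87 TPM in MDA PCa 2b against 0.841 TPM in RC77 T/E. With the floor MDA PCa 2b was 4.87-fold higher, and on the listed values 5.79-fold. A pseudocount of 1 TPM gave HMOX1 a log2 fold of −1.67 in place of −2.28. It was the lowest of the 7 genes above 1 TPM in MDA PCa 2b, wherever the open marks stand. Of the 7 genes of heme and iron handling, none was higher in RC77 T/E and 4 (57.1%) were higher in MDA PCa 2b, beside 21.5% and 23.5% of all genes tested, with a median log2 fold of −1.15. Relative to the shift of all genes 3 were, beside 19.7% of all genes tested, BLVRB falling to −0.98. FTH1, the ferritin heavy chain, had 2126 TPM in MDA PCa 2b against 676 TPM in RC77 T/E, 3.15-fold higher in MDA PCa 2b. SLC40A1, the iron exporter, was at 2.42 and 0.145 TPM and BLVRB was 2.22-fold higher in MDA PCa 2b. The constitutive HMOX2 had 40.7 TPM in MDA PCa 2b against 38.2 TPM in RC77 T/E, so the inducible form alone was apart among the heme oxygenases.

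Of 10 genes of NRF2 control, 9 were within 2-fold, 1 (10%) was higher in RC77 T/E and none was higher in MDA PCa 2b, beside 21.5% and 23.5% of all genes tested. NFE2L2 had 26.3 or 263 TPM in MDA PCa 2b against 41.2 or 412 TPM in RC77 T/E, which is 1.56-fold higher in RC77 T/E. KEAP1 was 1.67-fold and CUL3, the scaffold of its ligase, 1.48-fold higher in MDA PCa 2b. BACH1, the repressor that competes for the antioxidant response element, had 5.56 or 55.6 TPM in MDA PCa 2b against 21.1 or 211 TPM in RC77 T/E, 3.80-fold higher in RC77 T/E. HMOX1 was lower in the line where BACH1 was higher, and a link between them was not tested. NRF2 is controlled mainly through protein stability, which these data do not measure.

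Other genes tied to NRF2 lay on both sides. Among 7 further targets, 1 (14.3%) was higher in RC77 T/E and 5 (71.4%) were higher in MDA PCa 2b, beside 21.5% and 23.5% of all genes tested, with a median log2 fold of −1.83. Relative to the shift of all genes 4 were higher in MDA PCa 2b, beside 19.7% of all genes tested. OSGIN1 was 6.51-fold and the glutathione conjugate pump ABCC1 5.77-fold higher in MDA PCa 2b, whereas the related pump ABCC3 was 3.72-fold higher in RC77 T/E. Among 5 genes that supply NADPH, of which TKT also counts among the 7, ME1 (malic enzyme 1) had 0.0335 TPM in MDA PCa 2b against 12.8 TPM in RC77 T/E. IDH1 was 5.79-fold higher in MDA PCa 2b, and TKT, PGD and TALDO1 were within 2-fold. Of the 4 superoxide dismutase and catalase genes, 3 (75%, beside 23.5% of all genes tested) were higher in MDA PCa 2b, with CAT 2.52-fold and SOD1 2.42-fold higher and SOD3 listed at 0 in RC77 T/E. With a pseudocount of 1 TPM the call of CAT was lost, at a log2 fold of −0.95. PIR was not analysed here.

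Over all 10 lists and without the 10 genes themselves, 74 genes averaged 1 TPM or more. Of these, 10 (13.5%) were higher in RC77 T/E and 29 (39.2%) higher in MDA PCa 2b, beside 21.5% and 23.5% of all genes tested, and their median log2 fold was −0.62. Relative to the shift of all genes the counts were 10 and 27 and the median −0.45. The wider redox genes therefore leaned toward MDA PCa 2b, as NQO1, HMOX1 and TXNRD1 did, and GSTP1, AKR1C1 and AKR1C2 lay on the side with fewer of them. The 74 genes include 3 listed at 0 in 1 line. Since the lists were chosen with earlier results of these data known, the lean describes the listed genes only.

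**Figure D5:**
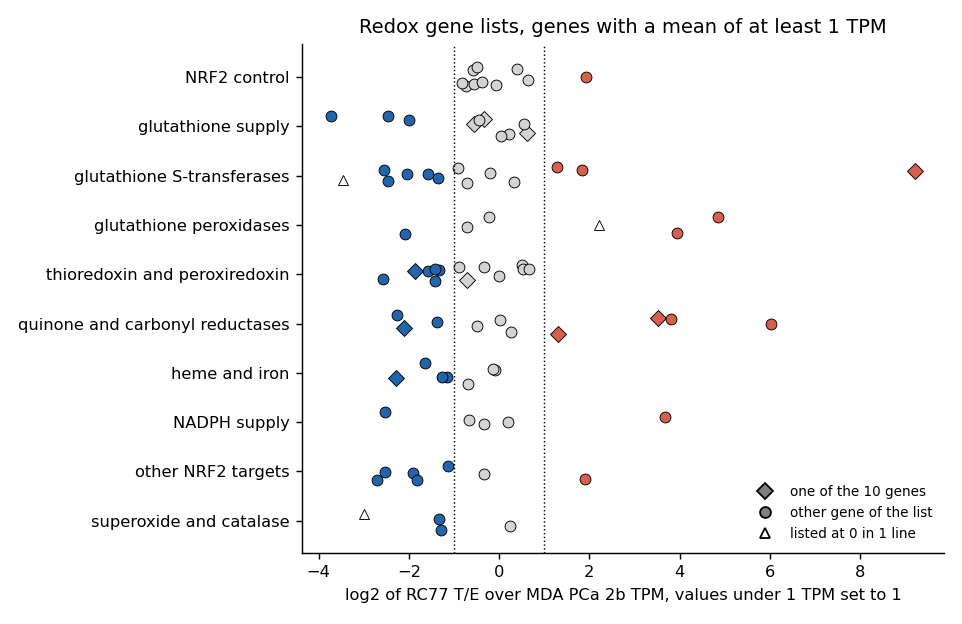
Log2 fold of RC77 T/E over MDA PCa 2b (values under 1 TPM set to 1 TPM) for the genes of 10 redox lists averaging 1 TPM or more. Each list has 1 symbol per gene, so TKT, which is in more than 1 list, is drawn in each. Diamonds mark the 10 genes, triangles genes listed at 0 in 1 line, and dotted lines 2-fold. GSTP1 at 9.22 lies apart from the other transferases, of which 6 fall below −1.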

How the data were processed

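RNA was isolated with TRIzol from each cell line, had RIN scores of at least 9, and was made into directional paired-end libraries. The submitters' processing notes name CASAVA, FastQC 0.11.9, Trimmomatic 0.38, Salmon 1.2.0 and GRCh38, without their roles. The annotation, and whether the values use the strand, are not given in the sources used here. The authors deposited TPM per locus with the mean and standard error of both lines, and no counts were used, so the depth is unknown and intervals cannot be computed.

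The deposited TPM values of 1 or more with at least 3 decimals lack their decimal mark (10361 values for MDA PCa 2b, 11082 for RC77 T/E). The design had assumed plain values, so the mark was restored first. Positions with 1 to 3 leading digits and 3 or more decimals were kept when the pair matched the deposited mean and standard error. Of 22704 loci, 16212 kept 1 position and 6492 kept 2 or 3, and the lowest was used for these. On 5000 simulated rows the 2634 with 1 position all had the true one, and the fold with the floor was true in 5000. These rows were written with the loss rule that the restoring assumes, and held no zeros or summed loci. They do not show that the deposited marks were lost in this way. Per locus, the fold with the floor does not depend on the mark, except at 3 loci and where 1 line is listed at 0. For a symbol that sums settled and open loci it can depend on the mark. GSTT2, counted higher in MDA PCa 2b, had 23.5 or 179 TPM there against 9.23 or 43.7 TPM in RC77 T/E.

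Loci of a symbol were summed, 87 repeat rows were dropped, and values under 1 TPM were set to 1 TPM before log2 folds. Genes averaging 1 TPM or more were tested against a 2-fold limit, with no p-value. The text names all 10 genes and, from each wider list, at least the 2 genes with the largest fold in each direction among those past the limit. The 10 genes and the lists were chosen with earlier results of these data known. Of 82 wider genes 80 were in the table, and some other genes first placed in the lists are not reported here, in counts or medians either. Sequences come from RefSeq windows and GENCODE release 29 transcripts. Alternatives concerned the floor, pseudocounts, scaling, the background, summing, the comma reading, the fold limit and the 1 TPM level, and the open marks at the highest position were added after seeing the data. Python 3.11.15, numpy 2.4.6, matplotlib 3.10.9 and Biopython 1.88 were used.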

Additional observations from a re-analysis of the deposited data

How the results depend on the processing

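The 3 genes of the 10 called higher in RC77 T/E and the 3 called higher in MDA PCa 2b kept these counts with a floor of 0.1 TPM, pseudocounts of 1 and 0.1 TPM, centring, upper-quartile scaling, all genes above 0 as background, the largest locus and the open decimal marks at the highest position (the last chosen after seeing the data). With a 4-fold limit the counts were 2 and 2, the wider lists gave 6 (RC77 T/E) and 13 (MDA PCa 2b) genes, and of all genes 10.7% and 7.8% passed. Reading the commas as digit grouping, which the deposited means and standard errors contradict, gave 7 and 1 of the 10 genes, 20 wider genes higher in RC77 T/E and 32.8% of all genes. It reversed the log2 folds of NQO1 (11.19), TXNRD1 (1.45), ABCC1 (0.79), ABCC3 (−1.43), AKR1A1 (1.95), BACH1 (−1.40), FTH1 (8.31), GGT1 (12.89), GSR (0.86), GSTM3 (0.86), GSTT2 (0.21), GSTZ1 (0.76), IDH1 (0.79), MGST2 (1.29), MGST3 (−2.04), OSGIN1 (0.62), PRDX3 (2.00), SOD1 (8.69), TRIM16L (1.41) and TXNRD2 (0.75). A floor of 0.1 TPM moved the log2 folds of 12 genes with a value under 1 TPM, among them AKR1C1 to 6.85, AKR1C2 to 4.63 and GSTP1 to 10.24. A pseudocount of 1 TPM moved HMOX1, whose mark is settled, to −1.67. With the open marks at the lowest position it moved GSR to −1.77, NQO2 to −1.56 and CHAC1 to −1.35. At that position it also ended the calls of PRDX6 and CAT (both −0.95) and left 27 wider genes higher in MDA PCa 2b. With the open marks at the highest position 29 wider genes were higher there. Centring ended the calls of BLVRB (−0.98) and EPHX1 (−0.95), as did upper-quartile scaling (−0.99 and −0.96). Centring raised the share of calls higher in RC77 T/E over all genes from 47.9% to 55.1%. A level of 0.5 TPM was reached by 7 of the 10 genes in MDA PCa 2b and by 10 in RC77 T/E, a level of 5 TPM by 6 and by 7 or 8. No paired analysis was possible because there is 1 library for each line. The depth of the libraries is unknown, so values well under 1 TPM carry no known precision.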
